A study of Homo sapiens with 6 samples.

Results

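The genes described here encode the proteins of the cytosolic ribosome. They were chosen by symbol, as RPL or RPS followed by a number, or as RPLP0, RPLP1, RPLP2 or RPSA, leaving out pseudogenes and the kinases named RPS6K. For each gene the brightest probe was used, and a probe had to be detected, with a detection p below 0.05, on at least 2 of 6 arrays. The array annotation held 77 such genes, and 74 of them were measured, out of 13022 genes measured in all. Of the 74, 47 belong to the large (60S) subunit and 27 to the small (40S) subunit. RPL10, RPL3L and RPS4Y2 had no probe that passed, and RPLP0 and RPSA were not analysed here.

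The study measured gene expression in breast cancer cell lines carrying short hairpin RNAs (shRNAs), with SETDB1, a histone H3 lysine 9 methyltransferase, as the target. MDA-MB-231, a triple-negative line of mesenchymal character, had 2 arrays labelled SETDB1 knock-down with hairpin shRNA-1 and 2 control arrays labelled shCtrl. MDA-MB-453, a luminal line that expresses the androgen receptor, had 1 array labelled knock-down with another hairpin, shRNA-3, and 1 control array labelled shCtrl. Both lines were grown in DMEM with serum, no dose or time is given, and a difference between the lines is also one between the hairpins. The labels do not say whether replicates were separate cultures, so p-values measure only the spread between arrays.

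A ribosome reads messenger RNA on its small subunit and joins amino acids on its large subunit, and nearly every ribosomal protein is present in a single copy in each particle. The messenger RNAs of these proteins are among the most abundant in growing cells. Most begin with a terminal oligopyrimidine (TOP) stretch, a C at the start site followed by a run of C and T, through which the mTOR pathway and the RNA-binding protein LARP1 control their translation. Some ribosomal proteins have a second gene, a paralog, whose product can take the same place in the particle.

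The start sites of the measured genes show this feature. RefSeq promoters of the build GRCh38.p14 were matched by symbol for 63 of the 74 genes, and 44 of them (69.8%) had a C at a listed start followed by at least 4 bases that are each C or T. The same holds for 748 of 10356 measured genes with a promoter in the table (7.22%). Only a run beginning at a listed start base was counted, so one beginning a few bases away is missed. The stretches below run from 30 bases before the start to 20 bases from it on, 5′ to 3′ on the gene's own strand. They are shown because the genes that changed most in MDA-MB-231 fall on both sides of this feature, and RPL22 is set beside its paralog RPL22L1. Capitals mark the pyrimidine run at the start site.
RPL22L1: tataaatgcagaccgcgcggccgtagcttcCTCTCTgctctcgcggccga
RPL22: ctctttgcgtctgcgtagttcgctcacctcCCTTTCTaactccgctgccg
RPL28: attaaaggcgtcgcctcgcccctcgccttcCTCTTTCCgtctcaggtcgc
RPL35: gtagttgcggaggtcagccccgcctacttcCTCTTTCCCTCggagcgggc
RPS7: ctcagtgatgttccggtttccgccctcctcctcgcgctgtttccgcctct
RPL17: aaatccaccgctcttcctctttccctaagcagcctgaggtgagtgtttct
RPL4: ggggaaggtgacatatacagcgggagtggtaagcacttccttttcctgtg
RPS4X: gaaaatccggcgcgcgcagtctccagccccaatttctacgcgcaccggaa
The stretches lie at chr3:170870176-170870225 (minus strand) for RPL22L1, chr1:6199576-6199625 (minus) for RPL22, chr19:55385902-55385951 (plus) for RPL28 and chr9:124861938-124861987 (minus) for RPL35. Those of the genes without the run lie at chr2:3575230-3575279 (plus) for RPS7, chr18:49492446-49492495 (minus) for RPL17, chr15:66504836-66504885 (minus) for RPL4 and chrX:72277229-72277278 (minus) for RPS4X. Each holds the last part of the promoter and the first bases of the transcript as RefSeq lists it.

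Among the 10 genes called in MDA-MB-231 that had a promoter in the table, 5 had the run at the start site (RPL21, RPL22L1, RPL28, RPL29 and RPL35) and 5 had not (RPL17, RPL26L1, RPL4, RPS4X and RPS7). In the whole 300-base promoters, 250 bases before the start to 50 after, 4 further motifs were searched on both strands. CACGTG, the E-box letters that MYC can bind, was in 5 of 63 promoters (7.94%), against 12.4% of all. CCGGAAG, an ETS-type core, was in 22 (34.9%, against 21.1%), AAGATGGC, a YY1-type core, in 7 (11.1%, against 6.18%) and TATAAA in 6 (9.52%, against 9.21%). A match describes these letters only.

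SETDB1 was not measurably lower on its single probe, so the arrays are called labelled knockdown below. It read 7.40 and 7.42 on the MDA-MB-231 controls, 7.29 and 7.21 on the shRNA-1 arrays, 8.98 on the MDA-MB-453 control and 8.73 on the shRNA-3 array, all as normalised log2 intensities. The MDA-MB-231 difference was -0.16 (95% confidence interval -0.53 to 0.22, limma adjusted p = 0.493). On the control arrays the line labels held against marker lists: all 10 MDA-MB-231 markers, such as VIM, were lower on the MDA-MB-453 control and all 9 measured MDA-MB-453 markers, such as FOXA1, were higher. On the MDA-MB-231 shRNA-1 arrays 4 of these 9 rose against the controls, SPDEF by 4.92, AGR2 by 4.72, KRT19 by 4.48 and KRT8 by 1.43, while FOXA1 fell by 3.78. Of the 10 MDA-MB-231 markers 3 rose there, S100A4 by 8.67, and 0 fell. These shifts accompany every MDA-MB-231 difference given here, and their part in it was not tested. Between 19230 and 21238 of 48107 probes were detected per array, and control and shRNA-1 replicates correlated at 0.993 and 0.990 over all genes.

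Probes of ribosomal protein genes were among the brightest on every array. The median of the 74 genes' mean log2 intensity over the 6 arrays was 13.34, against 7.20 over all 13022 genes, and 72 of the 74 were detected on all 6 arrays. In 59 genes the mean lay at or above the 90th percentile of all genes (10.57) and in 38 at or above the 99th (13.13). The 4 highest means belonged to RPL41 (14.40), RPS29, RPLP2 and RPS12, and the 4 lowest to RPL10L (4.92), RPS4Y1, RPL22L1 and RPL37. The other 2 genes, RPL10L, a testis-type paralog of RPL10, and RPL39L, were detected on 4 arrays each, RPL10L at a level close to background and RPL39L clearly above it on all 4 MDA-MB-231 arrays. Just outside the filter, RPL10 had 2 probes of which the better was detected on 1 array. Signals of different probes are not comparable as amounts of RNA, so the order of genes here is one of probes.

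The median level of the 74 genes differed little from array to array. It was 13.43 and 13.16 on the MDA-MB-231 controls, 13.31 and 13.33 on the shRNA-1 arrays, 13.32 on the MDA-MB-453 control and 13.17 on the shRNA-3 array. As a share of summed unnormalised intensity, the used probes made up 7.63% and 6.75% on the MDA-MB-231 controls, 7.26% and 7.17% on the shRNA-1 arrays, and 7.28% and 6.87% on the MDA-MB-453 control and shRNA-3 arrays. In both measures the 2 shRNA-1 arrays lay between the 2 controls. The brightest probe, that of RPL41, read 20129 to 25531 before normalisation, where the highest intensity of an array was 25353 to 40217, and whether signals this bright are compressed was not tested.

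The comparison within MDA-MB-231 asks whether ribosomal protein genes changed with the hairpin shRNA-1. Most did not pass the test. Of the 74 genes 4 rose and 10 fell (limma, adjusted over all 13022 genes), where 19.5% of all genes rose and 19.7% fell. The called share was 18.9% of the 74 against 39.2% of all genes tested. The median difference was -0.08 on the log2 scale, against -0.01 over all genes, with quartiles of the 74 genes at -0.21 and 0.10. The median absolute difference of 0.16 between the arms stood beside 0.21 between the 2 controls and 0.15 between the 2 shRNA-1 arrays. The first is between means of 2 arrays and the others are between single arrays, which vary more. In bulk RNA a change in some cells and a smaller change in all of them cannot be told apart, and quantile normalisation removes any change in total RNA.

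The subunits were counted apart. Of 47 genes of the 60S subunit 3 rose and 8 fell (median -0.07), and of 27 genes of the 40S subunit 1 rose and 2 fell (median -0.10). The shRNA-1 arrays both lay below both controls in 24 of the 74 genes (32.4%, against 34.8% of all genes) and both above in 14 (18.9%, against 34.1%). Calls were fewer among bright probes: 1 rose and 2 fell among the 41 genes with a mean level of 13 or more (7.32%), and 3 rose and 8 fell among the other 33 (33.3%). Among the 114 genes outside the symbol rule at that level, which include FAU and RPL36AL, 9 rose and 9 fell (15.8%). The value of 13 was chosen after the data were seen.

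**Figure D1:**
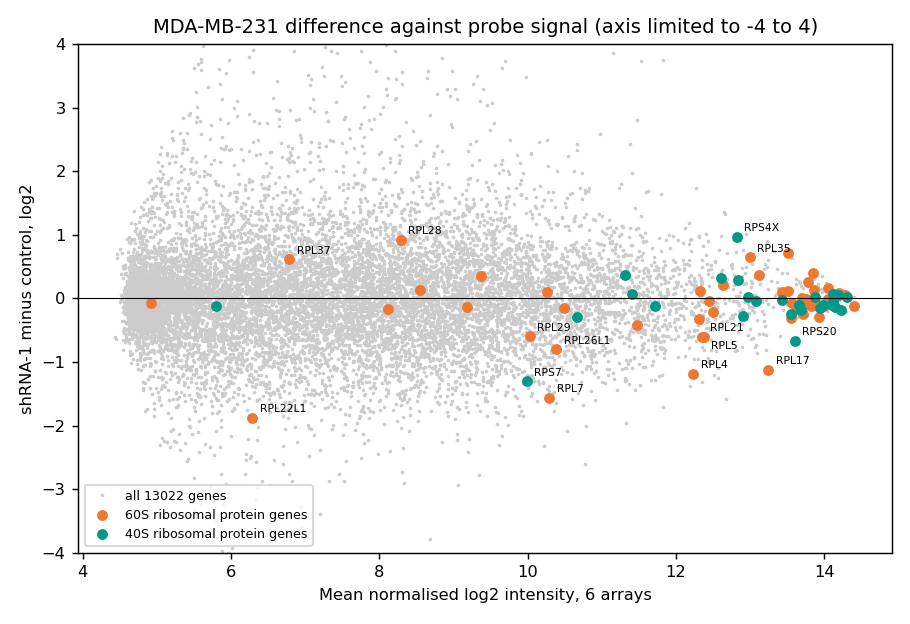
Difference between the MDA-MB-231 shRNA-1 and control arrays (log2, vertical axis, 2 arrays each) against the mean normalised log2 intensity over 6 arrays (horizontal axis). Each point is a gene: grey for all 13022 (those beyond 4 in size are not drawn), orange for the 47 genes of the 60S subunit and green for the 27 of the 40S, with the 14 called genes named; most of the 74 lie near 0 at the bright end and RPL22L1 stands apart at -1.88.

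The largest fall, with the main settings, was that of RPL22L1, the paralog of RPL22, a 60S protein that also binds viral and cellular RNAs. RPL22L1, like RPL22 a gene with a pyrimidine run at its start site, read 6.90 and 7.45 on the control arrays and 5.33 and 5.26 on the shRNA-1 arrays, so that both lay more than 1 log2 unit below the lower control. The difference was -1.88 ± 0.21 (SE; 3.68-fold lower; limma adjusted p = 2.49e-04). The size of this fall depended on the background correction. It was -1.35 without this correction and -1.29 with an offset of 50, where RPL7 had -1.53 and -1.52. RPL22 itself, which in mice restrains the expression of its paralog, read 11.39 and 11.90 against 11.43 and 11.02, a difference of -0.42 that did not pass (adjusted p = 0.182). In MDA-MB-453 neither was lower: RPL22L1 was 6.24 on the control and 6.55 on the shRNA-3 array, and RPL22 11.22 and 11.90.

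RPL7 and RPS7 came next, and both were also lower in MDA-MB-453. RPL7, a 60S protein, read 11.19 and 10.98 on the MDA-MB-231 controls, 9.83 and 9.22 on the shRNA-1 arrays, 10.88 on the MDA-MB-453 control and 9.66 on the shRNA-3 array. Its difference in MDA-MB-231 was -1.56 ± 0.23 (SE, limma adjusted p = 9.64e-04) and in MDA-MB-453, between single arrays, -1.22. RPS7, a 40S protein needed for the processing of 18S rRNA and one that binds MDM2, read 10.72 and 10.31, then 9.05 and 9.37, and 10.74 and 9.77 in the same order. It fell by 1.31 ± 0.21 in MDA-MB-231 (SE, limma adjusted p = 0.00148), and the MDA-MB-453 difference was -0.96. In both genes every array labelled knockdown lay below every control array of either line. The same held in RPL17, RPL21, RPL26L1, RPS20 and RPS4Y1. The share over all genes was not counted, so nothing is concluded from this order. Within MDA-MB-231 alone, both shRNA-1 arrays lay below both controls in 34.8% of all genes. The second RPS7 probe gave -1.26 and -1.05 in the lines, and RPL7 had 1 probe.

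RPL4 and RPL17, proteins whose extensions line the tunnel through which the new peptide leaves, fell by more than 2-fold. RPL4 went from 12.67 and 13.10 to 11.80 and 11.60, a difference of -1.19 ± 0.20 (SE, limma adjusted p = 0.00193). RPL17 went from 13.78 and 13.65 to 12.40 and 12.78, a difference of -1.12 ± 0.19 (SE, limma adjusted p = 0.00206), and its other probes gave -1.01 and -0.46, the latter not called. In MDA-MB-453 RPL4 was 11.95 on the control and 12.30 on the shRNA-3 array, and RPL17 13.66 and 13.22. These 5 genes, RPL22L1, RPL7, RPS7, RPL4 and RPL17, were the ones called with a change of at least 2-fold (16.7% of all genes).

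The other falls were under 2-fold. RPL26L1, a near-identical paralog of RPL26, went from 10.94 and 10.57 to 9.78 and 10.11 (-0.80, limma adjusted p = 0.0136). Its other probe gave -0.09, and the mean of both gave -0.45, which was not called. RPL26 had a difference of -0.22 that did not pass. RPS20, a protein of the 40S head, went from 13.93 and 13.85 to 13.18 and 13.26 (-0.67, adjusted p = 0.0124). RPL5, which carries the 5S rRNA into the ribosome together with RPL11, went from 12.69 and 13.19 to 12.33 and 12.35 (-0.60, adjusted p = 0.0441). RPL11 did not follow it, at 13.62 and 13.80 against 13.64 and 13.65. RPL21, from 12.80 and 12.50 to 12.04 and 12.05, and RPL29, from 10.10 and 9.69 to 9.44 and 9.16, had differences of -0.60 and -0.59 (limma adjusted p = 0.0262 and 0.0458).

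The 4 genes that rose did so by under 2-fold. RPS4X, the X-linked member of a pair whose other member, RPS4Y1, is on the Y chromosome, went from 12.44 and 12.50 to 13.52 and 13.35 (0.97 ± 0.17, SE, limma adjusted p = 0.0024), and its second probe also rose, by 0.81. The RPS4Y1 probe read between 5.64 and 5.91 over the 6 arrays, and whether this dim signal comes from the Y-linked gene was not tested. RPL28, a 60S protein that budding yeast lacks, went from 8.31 and 8.12 to 9.08 and 9.20 (0.93 ± 0.17, SE, adjusted p = 0.00325). RPL35, which sits at the mouth of the peptide tunnel, went from 12.77 and 12.47 to 13.29 and 13.24 (0.64, adjusted p = 0.0209). RPL37, measured on a dim probe, went from 6.81 and 6.62 to 7.24 and 7.42 (0.62, adjusted p = 0.0227), and its other probe, near background, gave -0.19. The 14 called genes all had groups that did not overlap. They were selected by a test on these same arrays, so this is no separate evidence.

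**Figure D2:**
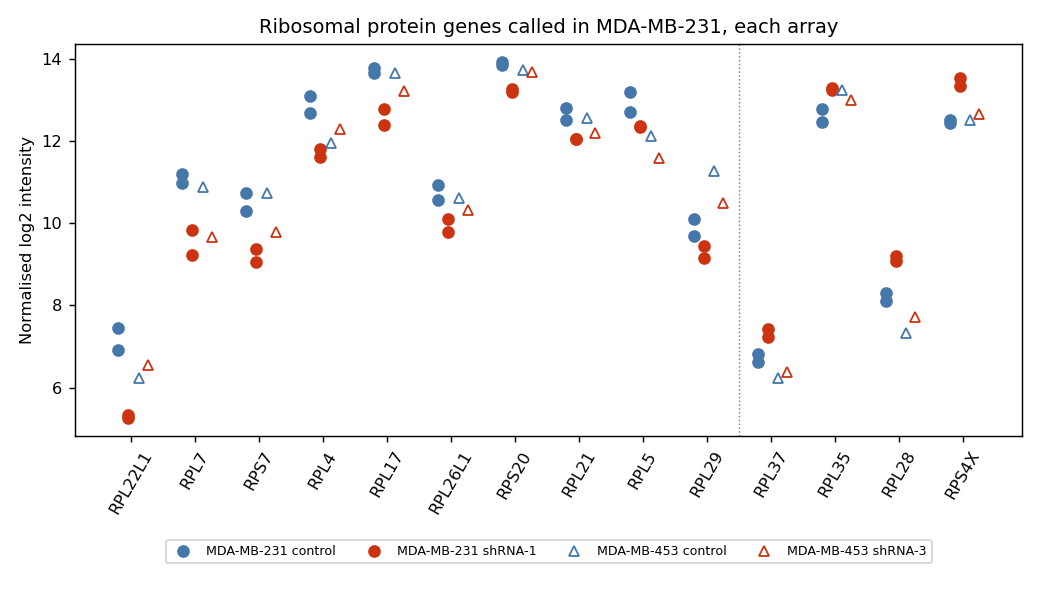
Normalised log2 intensity (vertical axis) on each of the 6 arrays for the 14 ribosomal protein genes called in MDA-MB-231, the 10 that fell left of the dotted line and the 4 that rose right of it. Filled circles are MDA-MB-231 and open triangles MDA-MB-453, blue for control and red for labelled knockdown; the red and blue circles never overlap, while the triangles of RPL22L1, RPL4 and RPL35 lie in the opposite order.

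Not all calls were equally firm. The calls of RPL22L1, RPL7, RPS7, RPL4, RPL17, RPS4X and RPL28 held under all 13 alternative settings, while those of the other 7 genes were lost under at least 1. RPL37, RPL29 and RPL5 were each lost under 4, with differences of as little as 0.22, -0.39 and -0.35. Without the first MDA-MB-231 control array 9 of the 14 calls held and without the second 8, beside 25.4% and 22.2% of all genes called.

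In MDA-MB-231, genes near several of the called genes on the chromosome had moved the same way. Among the 20 measured genes nearest to each gene, 10 on each side, the median MDA-MB-231 difference was -0.93 around RPL7 and -1.05 around RPS20, both on chromosome 8, -0.74 around RPL4, -0.66 around RPL21, -0.56 around RPL5, -0.47 around RPL17 and -0.42 around RPL29. It was 0.50 around RPL28 and 0.44 around RPS4X. For the other 5 called genes it was near 0, at -0.06 around RPL22L1, -0.03 around RPS7 (18 genes), -0.08 around RPL26L1, -0.05 around RPL37 and 0.00 around RPL35. Genes that were not called also lay in regions that had moved, such as RPS12 with -0.46 around it. The median was 0.52 around RPS19, 0.47 around RPL9 and 0.41 around RPLP2, whose own differences were 0.08, -0.09 and 0.05. These uncalled genes are named here after their values were seen, and no share over all genes was counted. In MDA-MB-453 the median of the nearest genes was -0.14 around RPL7, 0.20 around RPS7, 0.07 around RPL29 and -0.20 around RPL5. Of the genes called in MDA-MB-231 these were the lowest there, with differences of -1.22, -0.96, -0.79 and -0.54. The part of such regional differences in the genes' own changes was not tested. Ribosomal protein genes also have many near-identical processed pseudogenes, and where each probe binds was not analysed here.

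Of the paralogs, 8 of 9 were measured, and 2 fell and 0 rose in MDA-MB-231 (19.7% and 19.5% of all genes), with a median of -0.12. Besides RPL22L1 and RPL26L1, RPL7L1 had a difference of -0.33, RPS27L of -0.11, RPL39L of 0.13 and RPL36AL, the paralog of RPL36A, of 0.46, none of which passed. The corresponding values were 0.06 for RPS27, 0.40 for RPL39 and -0.17 for RPL36A. RPL3, whose muscle-type paralog RPL3L was not detected, had -0.30. The acidic stalk that recruits translation factors was measured through RPLP1 and RPLP2, with differences of -0.01 and 0.05. FAU, which encodes a 40S protein fused to a ubiquitin-like one and lies outside the symbol rule, had 0.23.

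Lists drawn across the subunits are set beside the 19.5% of all genes that rose and the 19.7% that fell. Of 18 genes mutated in Diamond-Blackfan anaemia, an inherited failure of red cell production, 16 were measured, and RPL35 rose while RPS7 and RPL5 fell (median 0.04). Of 9 genes of the peptide tunnel exit RPL35 rose and RPL17 fell (median 0.10). Of 7 measured genes lining the path of the messenger RNA on the small subunit none passed (median -0.11), RPS28 having the largest difference in MDA-MB-453.

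In MDA-MB-453, with 1 array per arm and so no test, the 74 genes had a median difference of -0.05, against 0.02 over all genes. None was higher by 2-fold or more (1.51% of all genes were) and 3 were lower by that much (1.56%). RPL36A, a 60S protein at the exit site for transfer RNA, went from 7.27 to 5.56, a difference of -1.71. The lowest detected signal of the shRNA-3 array was 4.82. The other RPL36A probe, near background and detected on 3 arrays, gave -0.17. RPL34, another 60S protein, went from 11.10 to 9.86, a difference of -1.24. RPL7, RPS7 and RPL29 followed with -1.22, -0.96 and -0.79. The highest differences were those of RPL22 (0.68), RPS28 (0.57), RPL13A (0.51), RPL12 (0.49) and RPL28 (0.40). Of these 10 genes, RPL7, RPS7 and RPL29 fell and RPL28 rose in MDA-MB-231, and RPL36A and RPL34 stood at -0.17 and -0.15 there.

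**Figure D3:**
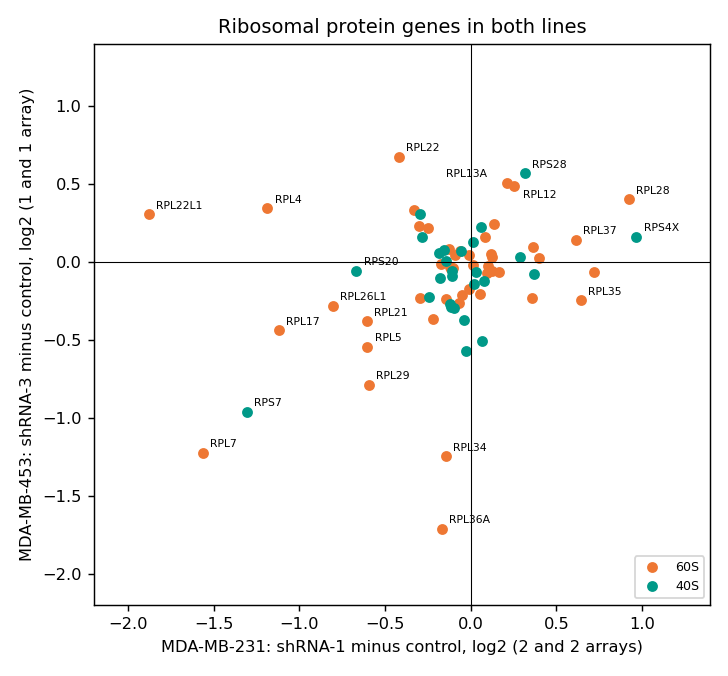
Difference between labelled knockdown and control in MDA-MB-231 (horizontal axis, log2, 2 arrays against 2) and in MDA-MB-453 (vertical axis, log2, 1 array against 1). Each point is a ribosomal protein gene, orange for the 60S and green for the 40S subunit, with the genes called in MDA-MB-231 and the 5 highest and 5 lowest in MDA-MB-453 named; RPL7 and RPS7 are low in both lines, RPL22L1 and RPL4 lie far left, and RPL36A and RPL34 far down near 0 on the horizontal axis.

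The difference of effects between the lines was tested directly with limma's interaction term, which takes the single MDA-MB-453 arrays to vary like those of MDA-MB-231. It passed for 3 of the 74 genes, where 13.6% of all genes passed. For RPL22L1 the MDA-MB-453 effect minus the MDA-MB-231 effect was 2.19 ± 0.36 (SE, limma adjusted p = 0.00628). For RPL4 it was 1.53 ± 0.34 (SE, limma adjusted p = 0.0220), and for RPL36A -1.54 ± 0.40 (SE, limma adjusted p = 0.0360). The call of RPL22L1 held under all 12 alternatives that could be fitted to this term, with values from 1.51 to 2.46. That of RPL36A was lost under 4, the replicate block (adjusted p = 0.0508) and an offset of 50 (-1.06, adjusted p = 0.102) among them, and that of RPL4 under 2. Since each line carried its own hairpin, line and hairpin cannot be told apart in these differences.

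Across both lines together, with cell line as a covariate and 3 arrays against 3, none of the 74 genes passed limma's test after adjustment, and only 5 of the 13022 genes did (0.0384%). At an unadjusted p below 0.05 there were 12 of the 74, 3 higher and 9 lower, against 30.6% of all genes. RPL7 and RPS7, lower in both lines, had differences of -1.45 ± 0.22 and -1.19 ± 0.20 in this model (SE, limma adjusted p = 0.0564 for both).

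The control arrays also tell how the lines differ before any hairpin against SETDB1, with the single MDA-MB-453 array taken to vary like the others. These differences use the same 2 MDA-MB-231 controls as the comparison above. Of the 74 genes 4 were higher and 10 lower in MDA-MB-453 (limma, adjusted over all genes), against 26.9% and 26% of all genes (18.9% against 52.9% in either direction), and the median difference was -0.07 (0.00 over all genes). The largest was that of RPL39L, the paralog of RPL39 best known from the testis. RPL39L read 10.59 and 10.20 on the MDA-MB-231 controls and 10.47 and 10.58 on the shRNA-1 arrays, while on the MDA-MB-453 arrays, at 4.78 and 4.72, it was not detected. With the main background setting RPL39L was at least 44.8-fold higher in MDA-MB-231 (limma adjusted p = 2.93e-07). Its difference ran from -5.81 to -4.49 on the log2 scale over the settings that gave a value, so the fold depends on the processing. Its second probe ran the same way, at 10.64 and 10.21 against 4.54. RPL39 did not differ measurably, at 13.74 and 13.53 against 13.89.

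RPL36A was the next lower, at 9.38 and 8.72 on the MDA-MB-231 controls and 7.27 on the MDA-MB-453 control (-1.78, limma adjusted p = 7.43e-04). Its other probe, near background and detected on 3 arrays, ran the other way, at 4.25 and 4.35 against 5.15, and the mean of the probes gave -0.47, which was not called. RPS23, a protein of the decoding centre, read 11.02 and 11.34 against 9.77 (-1.41, adjusted p = 8.16e-04), and RPL26 13.09 and 12.88 against 11.94 (-1.05, adjusted p = 0.00577). RPL4, RPL22L1, RPL28, RPL27, RPS13 and RPL5 were lower by between 0.81 and 0.94 log2 units. RPL14 was the highest in MDA-MB-453, at 8.68 and 8.41 against 10.71 (2.16, adjusted p = 5.06e-04), but its other probe ran the other way, at 9.51 and 9.27 against 8.53. RPL29 was higher by 1.38 on its used probe and by 1.35 on its other. RPL38, which in mice is needed for the translation of certain Hox messenger RNAs, was higher by 0.65 and RPL35 by 0.61. The calls of RPL39L, RPS23, RPL26, RPL28 and RPL29 held under every alternative that gave a value, and those of the other 9 genes did not. RPL38, RPL35 and RPL5 were lost with the replicate number as a block (adjusted p = 0.0573, 0.0939 and 0.0634), and RPL38 and RPL35 also without either MDA-MB-231 control array.

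**Figure D4:**
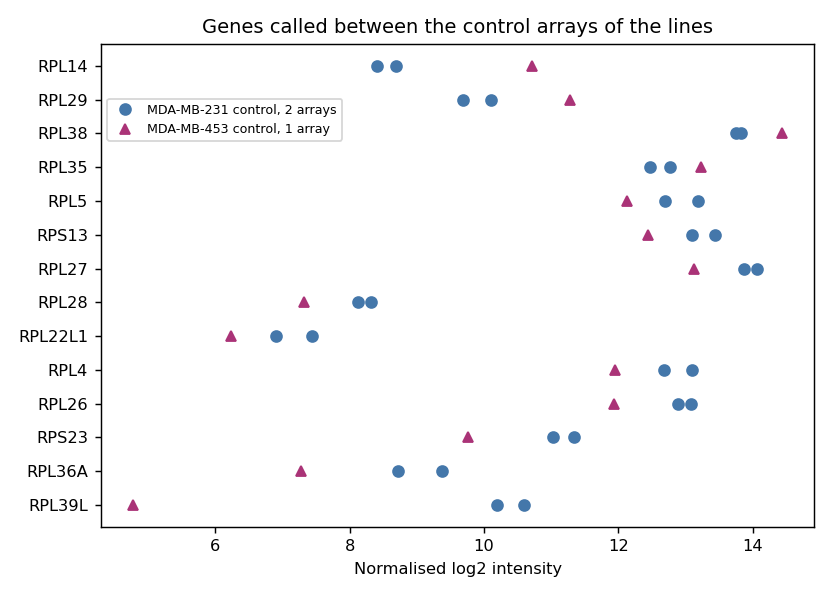
Normalised log2 intensity (horizontal axis) on the control arrays for the 14 ribosomal protein genes called between the lines, ordered by the difference. Blue circles are the 2 MDA-MB-231 controls and purple triangles the single MDA-MB-453 control; RPL39L spans from 4.78 to over 10, and the other genes differ by at most 2.16.

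Several ribosomal protein genes had more than 1 probe, and their probes did not always tell the same story. Of 126 annotated probes 121 were detected on at least 2 arrays, and 35 genes had over 1 of these. No gene had probes called in opposite directions. The widest gap was that of RPL8, with 0.72 on the used probe, not called, and -0.76 on the other, which was called. Of the 47 probes not used for a gene 2 rose and 14 fell in MDA-MB-231, in a fit over all 17668 probes in which 17.7% rose and 19.7% fell. These 16 probes belonged to 13 genes, 9 of which were not called on the brighter probe. These 9 genes are named here after their values were seen: RPL6, RPL7L1, RPL8, RPL9, RPL13, RPL32, RPL37A, RPS24 and RPS29.

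The falls lay mostly in the dimmer probes. Among 25 unused probes with a mean level under 11, a value chosen after the data were seen, 1 rose and 12 fell, with a median of -0.63 in MDA-MB-231 and -0.45 in MDA-MB-453. Among 22 at or above it, 1 rose and 2 fell, with a median of 0.05. For genes outside the symbol rule, 4486 unused probes under 11 had a median of -0.07 in MDA-MB-231, and 20.9% fell. In 14 cases the dim probe belonged to a gene whose used probe stood at 13 or more. There 1 rose and 8 fell with a median of -0.69, while the 12 used probes of the same genes had a median of -0.11 and 1 of them fell. The same setting outside the symbol rule gave 46 probes, of which 8 rose and 11 fell (23.9%), with a median of -0.15.

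Single genes show the size of the gap. RPL32, a 60S protein, read 14.09 and 14.05 on the MDA-MB-231 controls and 13.91 and 14.01 on the shRNA-1 arrays with its brightest probe, a difference of -0.11 that did not pass. Its 3 other probes read between 6.20 and 7.97 on the controls and between 5.38 and 6.91 on the shRNA-1 arrays, and fell by 0.94, 1.09 and 1.32. RPL6, also of the 60S subunit, had differences of -0.30, -0.70 and -1.52 on probes in order of falling brightness. The dimmest read 10.60 and 10.75 on the controls and 9.31 and 9.01 on the shRNA-1 arrays.

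RPL37A and RPS24 repeated this with a pair of probes each. The bright RPL37A probe differed by -0.10 and the dim one fell by 1.18, from 7.92 and 7.81 to 6.64 and 6.73. The bright RPS24 probe differed by -0.25 and the dimmer one, designed on another RefSeq transcript of the gene, fell by 1.00. On the MDA-MB-453 arrays the dimmer RPS24 probe went from 10.18 to 8.78. RPS29 ran the other way: its dimmest probe, also designed on a different transcript, rose by 1.16, from 6.76 and 6.67 to 7.70 and 8.06, beside 0.03 on the brightest. On the MDA-MB-453 arrays that probe read 9.98 and 10.10.

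**Figure D5:**
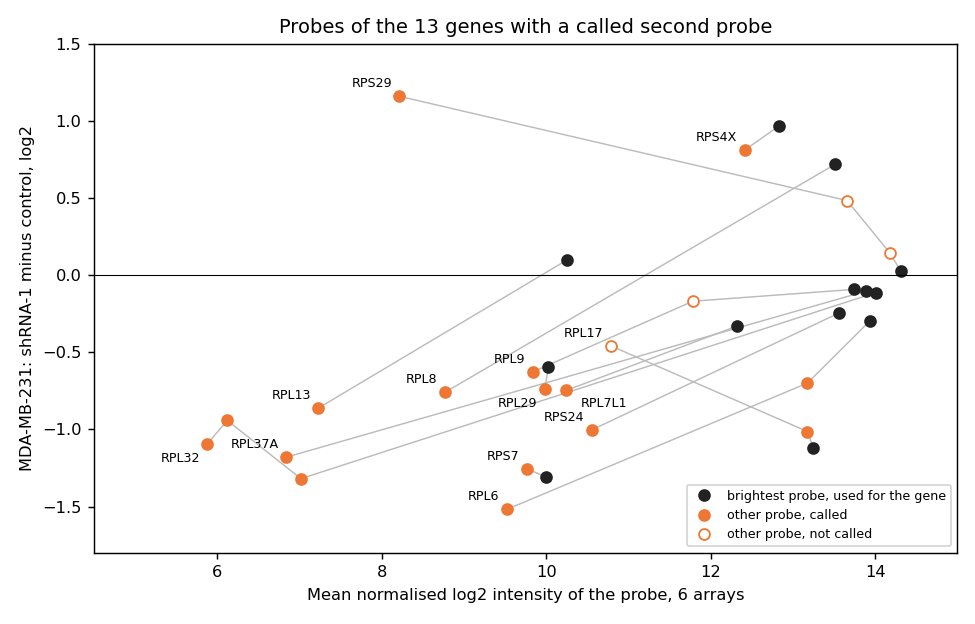
Difference between the MDA-MB-231 shRNA-1 and control arrays (log2, vertical axis) against the mean normalised log2 intensity of each probe over 6 arrays (horizontal axis), for the 13 ribosomal protein genes with a called probe other than the brightest. Grey lines join the probes of a gene, black points are the brightest probe and orange points the others, filled where called; for RPL32, RPL37A, RPS24 and RPL6 every dimmer probe lies below the brightest, and for RPS29 above it.

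Genes that act with the ribosomal proteins were followed in lists of the same kind. A list of 14 genes held chaperones and import partners of newly made ribosomal proteins, and also assembly factors such as LTV1, NOB1, MRTO4 and TSR1. In MDA-MB-231 0 of the list rose and 9 fell, those assembly factors included (19.5% and 19.7% of all genes did). The median of the list was -0.66 (-0.24 in MDA-MB-453). HEATR3, which carries RPL5 with RPL11 into the nucleus, fell most, from 8.10 and 8.41 to 5.72 and 6.49 (-2.16, limma adjusted p = 3.53e-04). GRWD1, whose counterpart in yeast escorts Rpl3, fell by 0.84, PDCD2, the chaperone of RPS2, by 0.89 and LTV1, a 40S assembly factor, by 0.95. TSR2, the chaperone of RPS26, and PDCD2L had differences of -0.34 and -0.31 that did not pass.

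Of 17 translation factors and related genes whose messenger RNAs carry TOP stretches, 16 were measured, and 0 rose and 4 fell in MDA-MB-231, where 19.5% and 19.7% of all genes did (median -0.16, and 0.22 in MDA-MB-453). EEF1B2, an exchange factor of elongation factor 1, fell by 0.77, EIF3K by 0.59, the poly(A)-binding protein PABPC1 by 0.58 and EIF3E by 0.53. EEF1A1 and EEF2 had differences of 0.01 and 0.22 that did not pass. A further list of 14 genes held regulators of TOP messenger RNAs and of ribosomal protein S6, and also MDM2 and MYC. Of the 13 measured, 5 rose and 1 fell in MDA-MB-231, beside the same shares of all genes. DDIT4, an inhibitor of mTOR complex 1, rose from 9.01 and 8.88 to 12.68 and 12.67 (3.73, limma adjusted p = 1.69e-06), and TSC1, TSC2, RPTOR and LARP4 rose by 0.97, 0.91, 0.84 and 0.55. EIF4EBP2, a repressor of cap-dependent translation, fell by 1.23. MTOR (0.36) and MYC (-0.09) did not pass.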

How the data were processed

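Per the labels' protocols, biotin-labelled cRNA made from total RNA was read on Illumina bead arrays. The authors deposited unnormalised probe intensity values of 6 arrays and, per the file headers, a detection p-value beside each. The deposited processed log2 values equal the quantile-normalised log2 intensities to within 5.26e-09. Which programs made them is not given in the sources used here.

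With limma 3.58.1 in R 4.3.3, background was corrected (normexp, negative controls inferred from detection p-values, offset 16), then arrays were quantile-normalised and log2 taken. Of 48107 probes 30113 had 1 symbol in GEO's platform annotation, and 17668 of these were detected on at least 2 arrays, giving 13022 genes. Means of the 4 groups were fitted with lmFit and eBayes (residual degrees of freedom 2, prior 6.52, two-sided, Benjamini-Hochberg over all genes, threshold 0.05). An exact permutation of 2 against 2 arrays cannot give p below 0.333, so calls rest on the spread shared between genes. All arrays carry the same batch label. Where a gene was not detected on a group's arrays, the fold is a lower bound against the lowest detected signal, with the main background setting only. The fit was tested on simulated data.

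The members and lists were chosen with earlier results of these data known. Named were all genes called in any comparison (6 per direction between the lines, and, after their values were seen, RPL27 and RPS13), the 4 brightest and dimmest, the 5 highest and lowest in MDA-MB-453, paralog pairs, the P stalk, the 5S particle and the listed partner genes. The 13 alternatives tried were no background correction, an offset of 50, median scaling, detection on all arrays, no detection filter, the mean of kept probes, an intensity trend, leaving out each MDA-MB-231 array, the replicate number as a block, and MDA-MB-231 arrays only.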

Additional observations from a re-analysis of the deposited data

Results flagged for a closer look

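In 3 of the 74 ribosomal protein genes the effect differed between the lines by limma's interaction test (MDA-MB-453 effect minus MDA-MB-231 effect), with line and hairpin changing together and 1 array per arm in MDA-MB-453. For RPL22L1 the difference of effects was 2.19 ± 0.36 (SE, limma adjusted p = 0.00628), between an effect of -1.88 in MDA-MB-231 and 0.31 in MDA-MB-453, and the call held under all 12 alternatives fitted. For RPL4 it was 1.53 ± 0.34 (SE, limma adjusted p = 0.0220), between -1.19 and 0.34, and the call was lost under 2 of them, without a detection filter and without the second MDA-MB-231 control array. For RPL36A it was -1.54 ± 0.40 (SE, limma adjusted p = 0.0360), between -0.17 and -1.71. That call was lost under 4: those same 2, an offset of 50 (-1.06, limma adjusted p = 0.102) and the replicate block (adjusted p = 0.0508).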

How the results depend on the processing

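Leaving out 1 MDA-MB-231 array at a time gave 2893 to 5246 called genes over all 13022 in MDA-MB-231 (5103 with all arrays), 2 to 6 ribosomal protein genes that rose (4) and 6 to 9 that fell (10). It gave 9 to 21 called between the lines (14) and 1 to 6 with a called difference of effects (3). The low counts came without a control array, which leaves that arm with 1 array assumed to vary like the others. Across lines, where none passed, 2 ribosomal protein genes passed without background correction, 1 with an offset of 50, 4 when detection on all 6 arrays was required and 2 with an intensity trend. Without a detection filter 1 gene had a called difference of effects. With the replicate number as a block, the same 14 genes were called in MDA-MB-231 (4 rose, 10 fell, beside 4919 genes in all), 11 between the lines and 2 for the difference of effects. Same-numbered arrays did not deviate together (correlation 0.0713), so the number is not shown to pair them. The median MDA-MB-231 difference ran from -0.12 to 0.02, above 0 only without the first control array. Averaging the kept probes of a gene gave 17 calls, 12 of them shared, and added RPL32, RPL37A, RPL6, RPL7L1 and RPS24. It also ended the calls of RPL14 and RPL36A between the lines. No value changed sign while called. With 2 arrays per arm, the median size of these genes' differences was close to that between single replicate arrays, which vary more than means of 2 arrays.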
